A study of Macaca mulatta with 25 samples.

Results

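The comparison was between cervix collected after 1 day of progesterone and cervix from animals given estradiol alone, all of them ovariectomized rhesus macaques. Of the 25 arrays of the series, 10 carry the labels of this comparison and were chosen by those labels: 5 named E+1P and 5 named E2. Each array was hybridised with RNA of 1 animal. The series' design text counts 13 animals for estradiol alone and 4 for 1 day of progesterone; the arrays and their labels, 5 and 5, were followed. Values were read for 15534 genes, each listed with 1 symbol.

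Ovaries had been removed from every animal, and every animal carried an implant under the skin that released estradiol (E2). The E2 group had received estradiol only, for 14 days. E+1P animals also carried a progesterone (P) implant for 1 day; how long they had received estradiol before it the sources used here do not say. The age of the animals and the hormone levels in blood are likewise not given. Both hormones therefore came from implants and not from a cycling ovary, and every value describes a whole piece of cervix, with epithelium, stroma, muscle and vessels together. RNA was amplified from total RNA and read on a whole-transcript rhesus gene array. The other 15 arrays, from animals with progesterone for 3, 7 or 14 days (E+3P, E+7P and E+14P, 5 each), entered the fit to estimate the spread between animals.

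Progesterone acts through its receptor, PGR, a nuclear receptor that binds DNA after its chaperones release it, and estradiol acting through ESR1 raises PGR in the reproductive tract. In the cervix estradiol favours abundant watery mucus, and progesterone turns the mucus thick and scant. A day of exposure is long enough for direct target genes of the receptor to rise or fall, and also for a first round of genes downstream of them. Gene roles below are background, known mainly from human and mouse work.

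A change is the E+1P mean minus the E2 mean of log2 signals, so 1 on this scale is a 2-fold difference. Differences were tested with limma, and a gene is said to have risen or fallen only where its p, adjusted by Benjamini and Hochberg over all 40489 probe sets, was under 0.05. Values after ± are SDs over 5 arrays, each from 1 animal. Array values are given in the order of replicates 1 to 5, an order without meaning. Every adjusted p below comes from limma.

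E2 replicate 3 stood apart from the other arrays before any comparison was made. On this array 1006 of the 15534 genes lay more than 2-fold from the mean of the other 4 E2 arrays, against 167 to 247 genes on the other E2 arrays and 102 to 149 on the E+1P arrays, each set against the rest of its own group. The gel-forming mucin gene MUC5B had a log2 signal of 4.84 there and 9.60 to 10.37 on the other 4. CLCA2, an epithelial surface protein gene, was at 4.58 against 11.40 to 11.68, whereas the oviductal glycoprotein gene OVGP1 was at 12.63 against 7.34 to 10.33. The HOX gene HOXC6 was at 8.55 against 3.87 to 4.61. Whether its label is right cannot be checked from the files. Values without this array are given for named genes called only without it and beside the list counts that moved most. Calls lost without it are marked as lost, with the highest adjusted p over all fits that leave out 1 array. Over 54 gene lists its omission moved the median change by 0.05 in the middle case and by at most 0.31, for smooth muscle markers, so a list median close to 0 has no settled sign. Leaving it out gave 566 called genes, of which 421 were also called with it in the same direction.

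The lists of marker genes for 15 cell types held 1 called member among 189 measured genes, where 3.55% of all genes were called. It was PLIN4, a lipid droplet coat gene of the fat cell list (0.63, adjusted p = 0.0185). That call was lost without E2 replicate 4 or E+1P replicates 2, 4 or 5 (highest adjusted p = 0.0624) and in a fit of E2 and E+1P alone (adjusted p = 0.0644). Some markers varied widely between animals, among them SPRR3 (SD 2.54 in E2 and 3.26 in E+1P), so few calls do not show equal tissue makeup. All 10 measured fibroblast markers were lower in the E+1P mean, with a median change of -0.54 and none called. Their mean log2 signal was 8.71 to 9.32 on the E2 arrays and 7.65 to 8.73 on the E+1P arrays, so the groups overlapped. Smooth muscle markers had a median change of -0.44 with none called, and -0.13 without E2 replicate 3. In such pieces of tissue, fewer cells of a type and less RNA per cell cannot be told apart.

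After 1 day 552 of the 15534 genes (3.55%) had changed, 324 of them higher (2.09%) and 228 lower (1.47%). Counts of called members in the gene lists below are to be read beside these shares. Over all 40489 probe sets, with and without a symbol, 938 were called (2.32%), 562 higher (1.39%) and 376 lower (0.929%). The median change of all genes was -0.0012, so the calls lay on both sides of an unshifted centre. Risen genes had a median change of 0.80 and fallen genes one of -0.65. A change of at least 2-fold was found for 112 of the risen and 60 of the fallen genes, and one of over 4-fold for 18 and 9. Among the risen genes 293 had all 5 E+1P arrays above every E2 array, and among the fallen genes 177 had all 5 below. Over all genes, called or not, the groups did not overlap for 7.83% (4.29% above and 3.54% below). Calls were more frequent among genes with a high signal: with the genes split by mean signal into 3 sets of 5178, 6.32% of the brightest set changed, 3.21% of the middle set and 1.14% of the dimmest set. When the 10 arrays were left out 1 at a time, 276 of the 552 genes kept their call every time, 174 higher and 102 lower, and 452 kept it in a fit of E2 and E+1P alone.

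**Figure D1:**
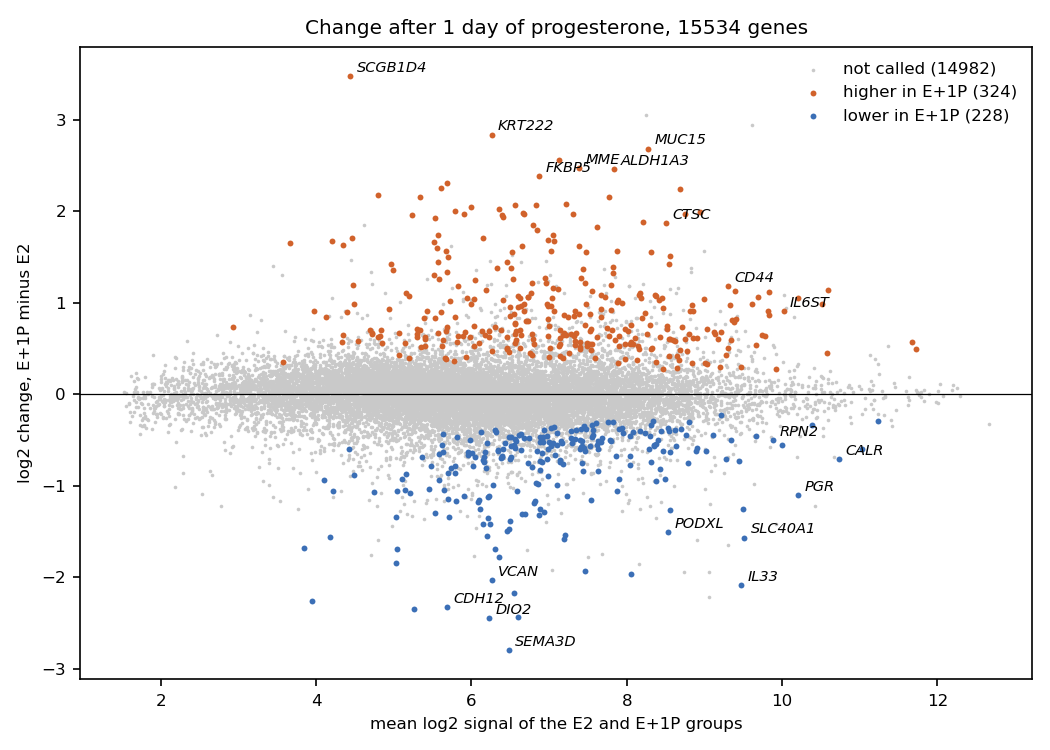
Mean log2 signal of the E2 and E+1P groups (x axis) against the log2 change, E+1P minus E2 (y axis), for 15534 genes, 1 point per gene; 324 genes that rose are orange, 228 that fell are blue and the rest are grey. The called genes lie on both sides of 0, and SCGB1D4 and SEMA3D mark the highest and lowest called change.

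Of 20 measured genes for steroid receptors and their cofactors, 1 rose and 4 fell, with a median change of -0.14. FKBP5 encodes a co-chaperone that holds steroid receptors in a state of low hormone affinity. Its log2 signals were 5.95, 5.93, 5.23, 5.32 and 5.94 in E2 and 8.12, 8.13, 8.06, 8.14 and 7.87 in E+1P. The 5 E+1P arrays lay within a narrow band, far above every E2 array, a 5.23-fold rise (log2 2.39, SE 0.22, adjusted p = 1.99e-06). FKBP4 encodes the related co-chaperone that favours progesterone receptor activity. Its signals were 8.40, 8.40, 8.49, 8.69 and 8.17 in E2 and 7.63, 7.61, 7.82, 7.40 and 7.85 in E+1P. FKBP4 thus moved the opposite way, with the highest E+1P array below the lowest E2 array, and fell by 0.77 (SE 0.16, adjusted p = 0.00956).

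The receptor gene PGR had signals of 10.88, 10.81, 10.45, 10.94 and 10.69 in E2 and 9.52, 9.82, 9.29, 9.84 and 9.81 in E+1P. The groups did not overlap, and the lowest E2 array was E2 replicate 3. PGR fell by 1.10 (2.14-fold, adjusted p = 0.00295) and by 1.17 without that array. ESR1 signals were 9.18, 9.11, 8.43, 9.16 and 8.85 in E2 and 7.89, 8.15, 8.21, 7.90 and 7.98 in E+1P, again without overlap and with E2 replicate 3 lowest of its group. ESR1 fell by 0.92 (adjusted p = 0.014). The other 15 members were not called, among them ESR2 (-0.33, adjusted p = 0.558), the glucocorticoid receptor gene NR3C1 (-0.09, adjusted p = 0.86) and the chaperone gene HSP90AA1 (-0.12, adjusted p = 0.732). In a list of 20 estrogen targets PGR was the 1 member called, and the median change was -0.10.

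CITED1, a fallen member of the list of steroid receptors and their cofactors, encodes a transcriptional co-regulator that binds the estrogen receptor. Its signals were 8.54, 8.78, 4.48, 8.52 and 8.77 in E2 and 5.38, 5.91, 4.59, 5.44 and 5.62 in E+1P. E2 replicate 3 lay below all 5 E+1P arrays, while the other 4 E2 arrays lay far above all of them. CITED1 fell by 2.43 (adjusted p = 0.0259), and by 3.26 without E2 replicate 3 (adjusted p = 1.08e-05); the call with that array was lost without any array other than E2 replicate 3 and E+1P replicates 2 and 5 (highest adjusted p = 0.0794) and in a fit of both groups alone (adjusted p = 0.112). Its paralogue CITED2 ran the other way. The CITED2 signal of E2 replicate 3 was 8.48, while the other E2 arrays were at 7.17 to 7.31 and the E+1P arrays at 7.94 to 8.37. It was not called over all arrays (0.73, adjusted p = 0.0665), and only without E2 replicate 3 was it higher (0.98, adjusted p = 0.00125).

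**Figure D2:**
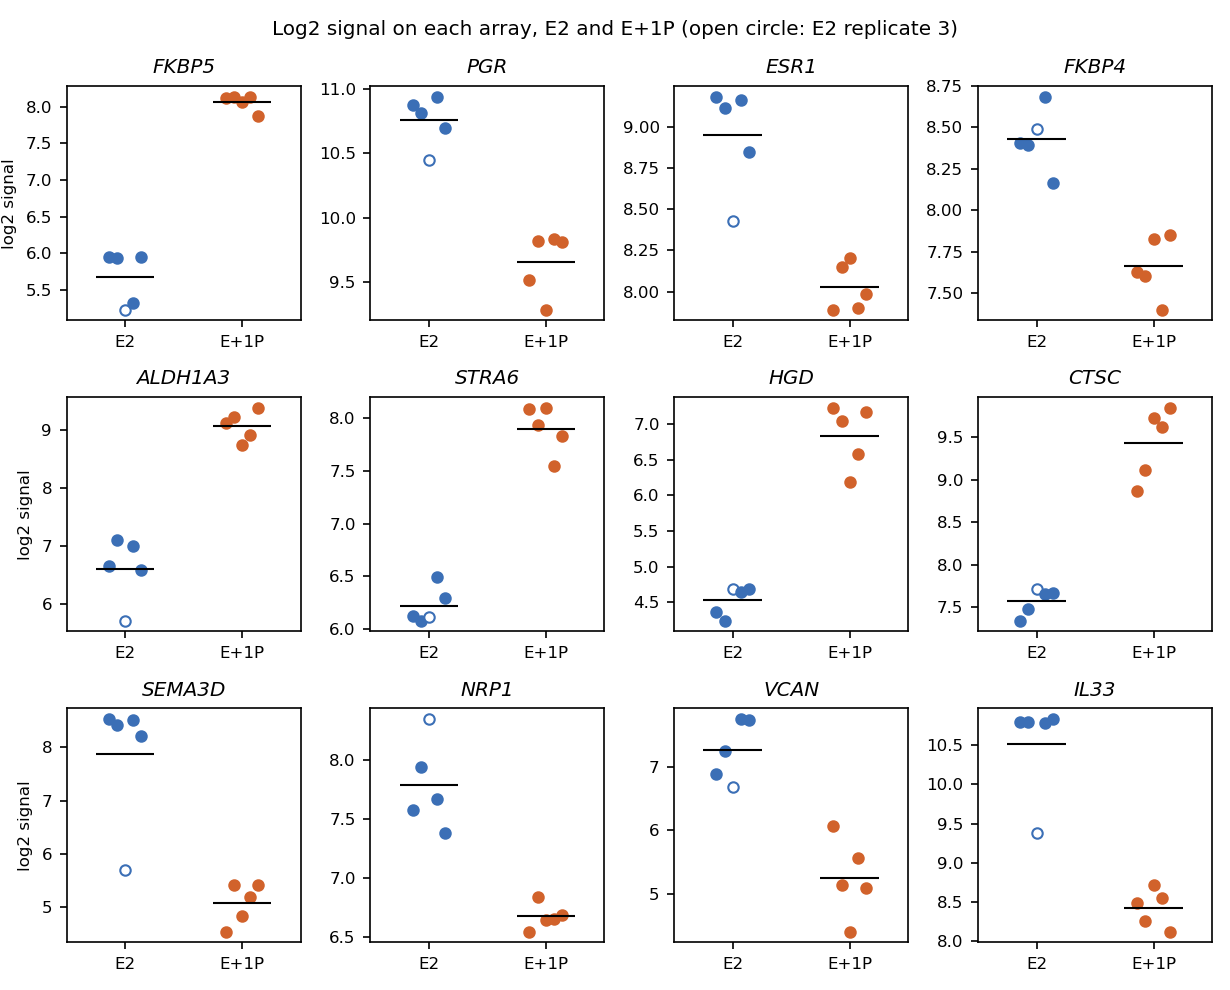
Log2 signal (y axis) on each E2 (blue) and E+1P (orange) array for 12 genes, 1 point per animal with the group mean as a line; the open circle is E2 replicate 3. In all 12 genes the E+1P points do not overlap the E2 points, and for SEMA3D, IL33 and VCAN the open circle is the E2 point nearest to the E+1P group.

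Targets of progestins and glucocorticoids, whose receptors bind the same DNA element, had the largest share of risen members among the 39 pathway and family lists: 9 of 37 rose and 1 fell, with a median change of 0.20. The mean of the list was 6.03 to 6.22 on the E2 arrays and 6.33 to 6.49 on the E+1P arrays. Without E2 replicate 3 the counts were 6 and 1. The members whose calls held whichever array was left out were FKBP5, TSC22D3, DDIT4 and DUSP1. TSC22D3, which encodes the anti-inflammatory leucine zipper protein GILZ, had signals of 5.85, 5.95, 5.66, 6.04 and 5.93 in E2 and 7.20, 6.82, 6.70, 6.59 and 7.29 in E+1P, without overlap, and rose by 1.03 (adjusted p = 0.000423). DDIT4, a brake on mTORC1 signalling, rose by 1.22 (adjusted p = 0.00196) and DUSP1, a phosphatase that switches off MAP kinases, by 1.06 (adjusted p = 0.00583).

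Calls for the other targets depended on single arrays. PDK4, a kinase that slows pyruvate oxidation, had signals of 5.62, 5.97, 7.81, 6.06 and 5.44 in E2 and 8.36, 8.65, 8.46, 8.17 and 7.67 in E+1P. E2 replicate 3 was the highest E2 array and lay above 1 E+1P array. PDK4 rose by 2.08 (adjusted p = 0.0338), a call lost without any array other than E2 replicate 3 and E+1P replicate 5 (highest adjusted p = 0.0936). NFKBIA, the inhibitor that holds NF-kB in the cytoplasm, rose by 0.75 (adjusted p = 0.0252, lost without E2 replicate 4 or E+1P replicates 1, 3, 4 or 5 (highest adjusted p = 0.075), and adjusted p = 0.1 in a fit of both groups alone). The transcriptional repressor gene BCL6 rose by 0.64 and the secreted protein gene CRISPLD2 by 0.99. The BCL6 call was lost without any array other than E2 replicate 5 and E+1P replicate 4 (highest adjusted p = 0.125) and with arrays centred on their median or without a variance trend. The CRISPLD2 call was lost without any array other than E2 replicate 4 and E+1P replicate 3 (highest adjusted p = 0.102). FOXO3, a transcription factor of quiescence, rose by 0.45, lost without any array other than E2 replicate 4 and E+1P replicate 1 (highest adjusted p = 0.104) and in a fit of both groups alone (adjusted p = 0.0555). STC1, a secreted glycoprotein of calcium and phosphate balance, was the member that fell, by 2.17 (adjusted p = 0.0251); its call was lost without any array other than E2 replicate 3 and E+1P replicates 2 and 4 (highest adjusted p = 0.0704). FOXO1 (0.13, adjusted p = 0.853) and ZBTB16 (0.34, adjusted p = 0.442), both used as markers of progestin action in endometrial stroma, were not called.

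Among 31 immediate early genes, which respond to stimuli without new protein synthesis, 4 rose and none fell, with a median change of 0.04. Leaving out E2 replicate 3 gave 4 risen and 1 fallen member, the phosphatase gene DUSP6 (-0.92, adjusted p = 0.00489). BTG2, which slows cell division, had signals of 7.69, 7.66, 7.06, 7.32 and 7.92 in E2 and 9.25, 9.21, 9.03, 8.96 and 8.99 in E+1P, without overlap (change 1.56, adjusted p = 4.35e-05). GADD45B, a stress sensor that acts on the p38 and JNK kinases, had signals of 5.44, 6.35, 5.25, 5.67 and 5.97 in E2 and 7.43, 6.88, 7.33, 7.25 and 7.05 in E+1P, also without overlap (change 1.45, adjusted p = 4.87e-05). The AP-1 subunit gene JUN rose by 1.37 (adjusted p = 0.00141), while its partner FOS was not called (-0.11, adjusted p = 0.933). The growth-factor response gene EGR1 was lower without a call (-0.95, adjusted p = 0.0665).

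The genes with the lowest p included several that are not classic hormone targets. CTSC encodes cathepsin C, a lysosomal peptidase that activates the proteases of neutrophils and other immune cells. Its signals were 7.34, 7.47, 7.71, 7.66 and 7.66 in E2 and 8.87, 9.11, 9.73, 9.63 and 9.85 in E+1P. Every E+1P array lay well above the highest E2 array, a 3.65-fold rise (log2 1.87, SE 0.19, adjusted p = 5.63e-06). SERPINF2 encodes the plasmin inhibitor alpha-2-antiplasmin, with signals of 5.30, 4.37, 4.86, 4.78 and 5.28 in E2 and 7.06, 6.91, 7.09, 6.36 and 7.0 in E+1P. Again the groups were far apart, and it rose by 1.97 (adjusted p = 1.99e-06).

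SEC14L2, a lipid transfer protein that binds vitamin E, rose by 1.97 (adjusted p = 6.45e-06) from 6.32 ± 0.51 to 8.29 ± 0.20. EEF2K, the kinase that slows translation by acting on elongation factor 2, rose from 6.22 ± 0.17 to 7.32 ± 0.15 (change 1.11, adjusted p = 8.12e-06). SMARCA1, an ATPase of ISWI chromatin remodelling complexes, rose by 1.08 (adjusted p = 8.12e-06), and TMEM43, a protein of the inner nuclear membrane, by 1.08 (adjusted p = 1.15e-05). PDCD4, a translation inhibitor that acts on an RNA helicase of initiation, was among the brightest genes that rose, from 10.01 ± 0.22 to 11.01 ± 0.11 (adjusted p = 0.0174). In each of these 7 genes the lowest E+1P array exceeded the highest E2 array, and the call held whichever array was left out.

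Other genes with large rises had varied roles. KRT222, a keratin family gene, had signals of 5.06, 5.07, 4.27, 4.75 and 5.05 in E2 and 7.84, 7.04, 8.54, 7.36 and 7.63 in E+1P and no overlap (7.15-fold, adjusted p = 1.22e-05). SCGB1D4, a small secreted secretoglobin, was dim in E2 at 2.36 to 3.10 and lay at 5.34 to 6.85 in E+1P (change 3.48, adjusted p = 0.00434). RAB3B, a small GTPase of regulated secretion, rose by 2.18 (adjusted p = 0.00302) from an E2 mean of 3.71, also dim. SLC26A7, an anion transporter, rose by 2.16 (adjusted p = 0.0055), the copper pump gene ATP7B by 2.0 (adjusted p = 0.000247) and UNC93A by 2.26 (adjusted p = 0.000352). LIPG, endothelial lipase, rose by 2.05 (adjusted p = 0.000141) and the PDZ-domain gene PDZD2 by 2.07 (adjusted p = 8.33e-05). For all of these the groups did not overlap and no single array decided the call. RGCC, a regulator of the cell cycle and a member of the cell division list, lay at 5.38 to 6.34 in E2 and 7.88 to 8.79 in E+1P and rose (adjusted p = 0.000735). Of the 36 members of that list only CDKN2C, a cyclin-dependent kinase inhibitor, was also called (0.59, adjusted p = 0.0495), and its call was lost without any 1 of the 10 arrays (highest adjusted p = 0.119) and in 3 of the other alternatives.

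In the retinoic acid pathway, in which vitamin A is taken up, oxidised to retinoic acid and read by nuclear receptors, 2 of 27 members rose and 1 fell (median -0.05). The risen members stand at uptake and synthesis. STRA6, the membrane receptor that takes up retinol, had signals of 6.13, 6.08, 6.11, 6.49 and 6.30 in E2 and 8.08, 7.93, 8.09, 7.55 and 7.83 in E+1P. ALDH1A3, which makes retinoic acid from retinaldehyde, had signals of 6.66, 7.09, 5.71, 7.0 and 6.58 in E2 and 9.11, 9.22, 8.73, 8.91 and 9.38 in E+1P. Neither gene showed overlap: STRA6 rose by 1.67 (adjusted p = 0.0001) and ALDH1A3 by 2.46 (adjusted p = 0.000141), or 2.24 without E2 replicate 3, its lowest array. The receptor gene RARA fell by 0.41 (adjusted p = 0.0242), lost without E2 replicates 2, 4 or 5 or E+1P replicates 2 or 4 (highest adjusted p = 0.0828) and in a fit of both groups alone (adjusted p = 0.0842). Genes that report retinoic acid activity elsewhere were not called: CYP26A1, which degrades it, changed by 0.21 (adjusted p = 0.508) and DHRS3, which reduces retinaldehyde, by 0.53 (adjusted p = 0.23). Without E2 replicate 3, RARB was called higher (0.99, adjusted p = 0.0169) and RDH10, which oxidises retinol, lower (-0.85, adjusted p = 0.00463), as was TGM2, tissue transglutaminase (-1.22, adjusted p = 0.0121).

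Thyroid hormone genes had 1 called member of 11. DIO2, the deiodinase that activates thyroxine, had signals of 7.09, 7.90, 6.13, 8.80 and 7.35 in E2 and 4.71, 5.06, 4.83, 5.14 and 5.30 in E+1P, without overlap, and fell by 2.44 (5.44-fold, adjusted p = 9.34e-05). DIO3, the deiodinase that inactivates the hormone, was not called (0.62, adjusted p = 0.182). Among 17 genes of steroid metabolism only AKR1C1, which in human converts progesterone to a less active form, was called. It lay at 5.29 to 6.23 in E2 and 6.22 to 7.81 in E+1P, so that 1 E+1P array overlapped, and rose by 1.37 (adjusted p = 0.00524).

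Amino acid breakdown had 3 risen and 1 fallen member of 25. HGD, which opens the ring of homogentisate in tyrosine breakdown, had signals of 4.37, 4.24, 4.68, 4.65 and 4.69 in E2 and 7.23, 7.04, 6.18, 6.58 and 7.17 in E+1P, a 4.97-fold rise without overlap (adjusted p = 6.84e-06). Both TDO2 and IDO2, which start the breakdown of tryptophan, rose, TDO2 by 1.63 (adjusted p = 0.000861) from a low mean of 3.53 and IDO2 by 1.66 (adjusted p = 0.0119). ALDH4A1, which completes proline breakdown, fell by 1.30 (adjusted p = 0.000555) and by 1.56 without E2 replicate 3, but a dimmer ALDH4A1 probe set changed by 0.22 the other way (adjusted p = 0.711). It was the exception among the 17 further probe sets of 15 called genes, of which 16 had the sign of the main one and 9 were called. Outside the list, ALDH6A1, an enzyme of valine breakdown, rose from 7.76 ± 0.18 to 9.73 ± 0.19 (adjusted p = 0.000385) and AOX1, aldehyde oxidase, from 5.52 ± 0.50 to 7.59 ± 0.23 (adjusted p = 0.00313).

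Guidance molecules and their receptors, which steer axons and vessels, had 5 fallen and no risen member of 39 (12.8% of the list, against 1.47% of all genes that fell; median -0.08).  SEMA3D, a secreted semaphorin, had signals of 8.54, 8.42, 5.71, 8.52 and 8.22 in E2 and 4.55, 5.42, 4.84, 5.19 and 5.42 in E+1P. E2 replicate 3 lay close to the E+1P arrays and the other 4 E2 arrays far above, so the fall was 2.80 with it (adjusted p = 0.00098) and 3.34 without it (adjusted p = 9.62e-06). NRP1, a co-receptor for semaphorins and for VEGF, had signals of 7.58, 7.94, 8.35, 7.67 and 7.38 in E2 and 6.54, 6.84, 6.64, 6.65 and 6.69 in E+1P, and here E2 replicate 3 was the highest array. The groups did not overlap, and NRP1 fell by 1.11 (adjusted p = 0.0168).

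EFNB2, the ephrin ligand of arteries, fell by 0.99 from 6.77 ± 0.38 to 5.78 ± 0.16 (adjusted p = 0.00787). SEMA3A fell by 1.13 (adjusted p = 0.0192) and SEMA3B by 0.63 (adjusted p = 0.0425), both with less margin. The SEMA3A call was lost without E2 replicates 1, 2 or 5 or E+1P replicate 2 (highest adjusted p = 0.0644). That of SEMA3B was lost without any array other than E2 replicate 3 and E+1P replicate 1 (highest adjusted p = 0.126), with quantile normalization and with a smooth muscle covariate. The paralogue SEMA3C was not called (0.02, adjusted p = 0.985). The list again had 5 fallen and no risen member without E2 replicate 3.

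A list of 34 receptors, channels and cadherins, many but not all best known from neurons, had 3 fallen members (8.82%, against 1.47% of all genes). None rose, while 16 had a positive change and the median was -0.05. Without E2 replicate 3, 5 fell, with the cadherin genes CDH8 (-0.83, adjusted p = 0.0412) and CDH11 (-0.90, adjusted p = 0.0423) added. CDH12, a neural cadherin, had signals of 7.18, 6.37, 7.18, 7.03 and 6.49 in E2 and 4.23, 4.85, 3.76, 4.97 and 4.84 in E+1P, without overlap (5-fold lower, adjusted p = 9.64e-06). GRIA2, a subunit of AMPA glutamate receptors, lay at 6.03 to 7.24 in E2 and 3.81 to 4.31 in E+1P (change -2.34, adjusted p = 0.000445). GRM8, a metabotropic glutamate receptor, fell by 1.34 (adjusted p = 0.0488), and by 1.83 without E2 replicate 3 (adjusted p = 9.17e-05); the call was lost without any array other than E2 replicate 3 (highest adjusted p = 0.15), without the 4 arrays of later groups that stand apart and without a variance trend, and the adjusted p was 0.179 in a fit of both groups alone. The markers of nerve and Schwann cells had none of 9 members called and a median change of 0.14.

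Further genes with large falls belonged to no list, and only some of them are given here. SLC40A1, the iron exporter ferroportin, had signals of 10.57, 10.38, 9.37, 10.29 and 10.88 in E2 and 8.74, 8.78, 8.90, 8.38 and 8.86 in E+1P, without overlap, and fell by 1.56 (adjusted p = 0.00188). TFRC, the transferrin receptor that takes iron up, fell by 0.99 from 7.60 ± 0.40 to 6.61 ± 0.29 (adjusted p = 0.00639). Also lower were PODXL, a sialomucin of the cell surface (-1.50, adjusted p = 0.00257), and ASF1B, a histone chaperone of dividing cells (-1.69, adjusted p = 0.000892). CA10, a carbonic anhydrase relative without enzyme activity, fell by 1.78 (adjusted p = 0.0109; adjusted p = 0.0516 in a fit of both groups alone), and by 2.26 without E2 replicate 3.

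Proteoglycans and glycoproteins of the matrix had 1 risen and 4 fallen members of 43. The median was -0.17, and -0.04 without E2 replicate 3, with the same counts. VCAN, the large hyaluronan-binding proteoglycan versican, had signals of 6.89, 7.26, 6.68, 7.77 and 7.75 in E2 and 6.07, 5.13, 4.40, 5.56 and 5.09 in E+1P. The highest E+1P array lay below the lowest E2 array, and VCAN fell by 2.03 (4.07-fold, adjusted p = 0.0143). SRPX2, a secreted chondroitin sulfate proteoglycan, fell by 1.41 from 6.86 ± 0.63 to 5.44 ± 0.15 (adjusted p = 0.00134). HAS2, which makes hyaluronan, was dim, with signals of 5.42, 4.52, 4.68, 4.49 and 4.62 in E2 and 3.85, 4.01, 3.15, 3.87 and 3.56 in E+1P, without overlap. HAS2 fell by 1.06 (adjusted p = 0.0276), lost without E2 replicate 1 or E+1P replicates 3 or 5 (highest adjusted p = 0.0876).

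The hyaluronan receptor gene CD44 went the other way. Its signals were 8.45, 8.65, 9.39, 8.46 and 8.60 in E2 and 9.77, 9.71, 10.02, 10.10 and 9.89 in E+1P, without overlap, a rise of 1.19 (adjusted p = 0.0217) that was lost without any array other than E2 replicate 3 and E+1P replicates 1, 2 and 5 (highest adjusted p = 0.0604). The heparan sulfate proteoglycan gene GPC4 fell by 0.75 (adjusted p = 0.0197), lost without E2 replicates 2 or 5 or E+1P replicate 3 (highest adjusted p = 0.0672). Beside these falls, all 10 fibroblast markers were lower without a call: the collagen gene COL3A1 changed by -0.58 and the small proteoglycan gene LUM by -1.65 (adjusted p = 0.251), and the list mean differed by -0.64. The part of this list in the fall of VCAN and SRPX2 was not tested.

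Of 44 collagen genes and collagen-processing enzymes 2 rose and none fell (4.55% called, near the 3.55% of all genes). Both encode chains of the same basement membrane collagen IV network. COL4A3 had signals of 4.91, 5.39, 5.24, 5.80 and 5.37 in E2 and 7.72, 7.26, 7.35, 7.33 and 7.15 in E+1P (change 2.02, adjusted p = 0.00547). COL4A4, which lies beside COL4A3 in the human genome and shares its promoter region, rose by 0.73 (adjusted p = 0.0135). For both, the groups did not overlap. Of 54 matrix proteases and inhibitors 1 fell, the metalloprotease gene ADAM28 (-1.16, adjusted p = 0.0274), lost without any array other than E2 replicates 2 and 3 and E+1P replicates 1 and 3 (highest adjusted p = 0.0816).

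Among signalling pathways the share of called members was 4.08% for Wnt, near the 3.55% of all genes, 5.88% for EGF and FGF, 7.14% for TGF-beta, BMP and activin, and 17.6% for the insulin and IGF axis. In Wnt signalling 2 of 49 members fell (median 0.03): PORCN, which attaches the lipid that Wnt proteins need for secretion, and LEF1, a transcription factor at the end of the pathway. PORCN signals were 7.13, 7.24, 7.60, 7.09 and 6.88 in E2 and 5.72, 5.68, 5.89, 5.59 and 6.12 in E+1P, without overlap (-1.39, adjusted p = 4.87e-05), and LEF1 fell by 0.74 (adjusted p = 0.0115). Without E2 replicate 3 the Wnt inhibitor gene DKK2 was also called lower (-2.54, adjusted p = 0.00378), against -1.78 (adjusted p = 0.168) with it. EGF and FGF signalling had 2 fallen members of 34, both known to follow ERK activity: SPRY4, a feedback inhibitor (-1.25, adjusted p = 0.00315), and the transcription factor gene ETV4 (-0.94, adjusted p = 0.0235, lost without E2 replicates 1 or 5 or E+1P replicates 2, 3 or 5 (highest adjusted p = 0.069)). Leaving out E2 replicate 3 gave this list 5 fallen members, with the ERK phosphatase gene DUSP6 (-0.92, adjusted p = 0.00489) and the ligand genes NRG1 (-1.08, adjusted p = 0.0146) and FGF10 (-0.93, adjusted p = 0.0394) added.

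The insulin and IGF axis had 1 risen and 2 fallen members of 17. IRS1, the adaptor of both receptors, fell by 0.74 from 7.28 ± 0.26 to 6.53 ± 0.27 (adjusted p = 0.00186), and the insulin receptor gene INSR rose by 0.66 (adjusted p = 0.0197, lost without E2 replicate 4 or E+1P replicates 1 or 2 (highest adjusted p = 0.0656)). STC1, described above, was the other fallen member. Among 42 genes of TGF-beta, BMP and activin signalling, FSTL3, a secreted inhibitor of activin, lay at 5.34 to 5.71 in E2 and 6.13 to 6.42 in E+1P and rose (adjusted p = 0.00665). ID1, a BMP target, rose by 1.16 (adjusted p = 0.026) and NOG, the BMP inhibitor noggin, fell by 0.59 (adjusted p = 0.0253). The ID1 call was lost without E2 replicates 3 or 5 or E+1P replicates 1, 2 or 3 (highest adjusted p = 0.085) and that of NOG without E2 replicates 1, 2 or 4 or E+1P replicates 2 or 3 (highest adjusted p = 0.0785), and in a fit of both groups alone neither was called (adjusted p = 0.0519 and 0.0614).

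Cytokines and their receptors had 2 risen and 2 fallen members of 51, and 3 and 5 without E2 replicate 3. Called only then were LIFR, a receptor subunit for LIF (0.69, adjusted p = 0.0248), IL18R1, a receptor subunit for IL-18 (-1.38, adjusted p = 0.019), and the ligand genes TNFSF15 (-1.24, adjusted p = 0.00679) and PDGFC (-0.83, adjusted p = 0.0435). IL33, an alarmin held in the nuclei of epithelial and stromal cells, had signals of 10.79, 10.80, 9.38, 10.79 and 10.84 in E2 and 8.50, 8.26, 8.72, 8.55 and 8.12 in E+1P. E2 replicate 3 lay well below the other E2 arrays and still above every E+1P array. IL33 fell by 2.09 (adjusted p = 0.00555) and by 2.37 without E2 replicate 3. The shared receptor subunit gene of the IL-6 family, IL6ST, was bright and tight, with signals of 9.49, 9.67, 9.39, 9.84 and 9.44 in E2 and 10.54, 10.65, 10.41, 10.31 and 10.48 in E+1P, and rose by 0.91 (adjusted p = 0.000311). IL20RA, a receptor subunit for IL-20 family cytokines of epithelia, rose by 2.15 (adjusted p = 0.00253). CSF3, the growth factor of neutrophils, fell by 1.04 (adjusted p = 0.017), lost without E2 replicates 1 or 2 (highest adjusted p = 0.0546). No chemokine or chemokine receptor was called by limma among 43, and 4 had an unadjusted p under 0.05 (9.30%, against 16.5% of all genes).

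**Figure D3:**
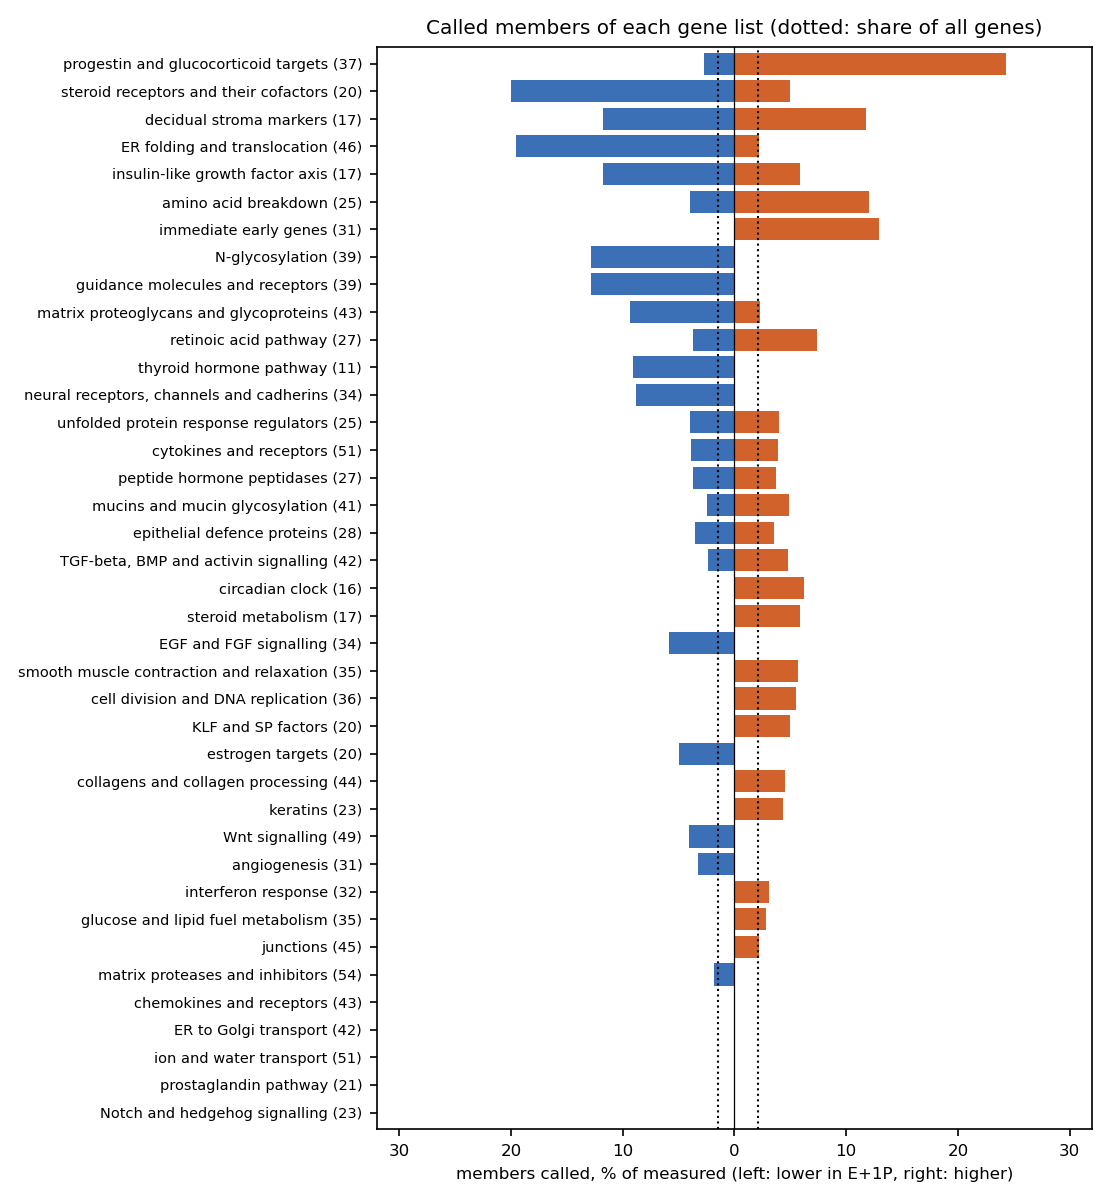
Share of measured members (x axis, %) that rose (orange, right) or fell (blue, left) in each of 39 gene lists, with the number measured in brackets; dotted lines mark the shares over all genes, 2.09% higher and 1.47% lower. Progestin and glucocorticoid targets reach furthest to the right, and steroid receptors and endoplasmic reticulum folding furthest to the left.

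Protein entry and folding in the endoplasmic reticulum (ER) had 9 fallen and 1 risen member of 46 (21.7% called, against 3.55% of all genes). Of the 46 members 43 had a negative change, the median was -0.28, and 16 had E+1P signals that all lay under the lowest E2 signal. Over all genes 3.54% lay below in this way. The list was bright, with a mean signal of 8.84 in E2 and 8.52 in E+1P, and 6.32% of the brightest set of genes were called. The counts without E2 replicate 3 were 7 fallen and 1 risen, with a median of -0.29. CALR, the calcium-binding chaperone calreticulin, had signals of 10.92, 11.01, 11.57, 11.02 and 10.94 in E2 and 10.35, 10.52, 10.52, 10.20 and 10.34 in E+1P, without overlap, and fell by 0.71 (adjusted p = 0.00491). SEC61A1, the pore of the translocation channel, had signals of 8.78, 8.99, 8.21, 9.28 and 8.93 in E2 and 8.08, 7.89, 8.31, 7.82 and 8.0 in E+1P, where E2 replicate 3 lay below 1 E+1P array. SEC61A1 fell by 0.82 (adjusted p = 0.00551).

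SDF2L1, a partner of the main ER chaperone, fell by 0.68 (adjusted p = 0.0082), and the disulfide isomerase gene PDIA6 by 0.62 (adjusted p = 0.00745). In a fit of both groups alone neither was called (adjusted p = 0.0555 and 0.056). The chaperone gene HSPA5 was lower without a call (-0.54, adjusted p = 0.0609). The exception was SEC62, a subunit of the same translocation machinery that also serves as a receptor for the breakdown of excess ER. Its signals were 8.60, 8.90, 8.95, 8.82 and 9.08 in E2 and 9.59, 9.33, 9.46, 9.53 and 9.47 in E+1P, without overlap, and it rose by 0.61 (adjusted p = 0.00203).

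N-glycosylation, which adds and trims sugar chains on proteins entering the ER, had 5 fallen and no risen member of 39. Of the list 12.8% fell, against 1.47% of all genes, with 37 negative changes and a median of -0.16. The list mean was 7.53 in E2 and 7.33 in E+1P, and 6.32% of the brightest set of genes were called. RPN2, a subunit of the transferase that attaches the chain, had signals of 10.04, 10.05, 10.21, 10.07 and 10.34 in E2 and 9.84, 9.56, 9.55, 9.50 and 9.72 in E+1P and fell by 0.50 (adjusted p = 0.00898). MGAT5, which branches the chains, fell by 0.67 (adjusted p = 0.00104) and ALG14, an early enzyme of chain assembly, by 0.59 (adjusted p = 0.0116), both without overlap. STT3A, the catalytic subunit of the transferase, fell by 0.44 (lost without any array other than E2 replicates 1 and 3 and E+1P replicate 1 (highest adjusted p = 0.112)), and UGGT1, which checks folding, by 0.33 (lost without any array other than E2 replicate 4 and E+1P replicate 2 (highest adjusted p = 0.125)). In a fit of both groups alone STT3A was not called (adjusted p = 0.0563), and the UGGT1 call was lost in 5 of the other alternatives. Transport from the ER to the Golgi had no called member of 42 in limma, with 34 negative changes and a median of -0.19. An unadjusted limma p under 0.05 was found for 18 members (42.9%, against 16.5% of all genes). Without E2 replicate 3, 3 fell, SEC23B, SEC24D and SURF4, by 0.52, 0.61 and 0.49.

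Regulators of the unfolded protein response did not share this pattern: of 25, 1 rose and 1 fell, with a median of 0.01. WFS1, an ER membrane protein that restrains the response, had signals of 7.09, 7.14, 7.78, 6.61 and 6.98 in E2 and 6.07, 6.16, 5.93, 6.10 and 6.05 in E+1P, without overlap, and fell by 1.05 (adjusted p = 0.000466). The sensor gene ATF6 rose by 0.62 (adjusted p = 0.0253), lost without E2 replicates 1, 3 or 4 or E+1P replicates 1 or 3 (highest adjusted p = 0.0779). XBP1 (-0.46, adjusted p = 0.632) and DDIT3 (-0.02, adjusted p = 0.964), a transcription factor and a death effector of the response, were not called.

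**Figure D4:**
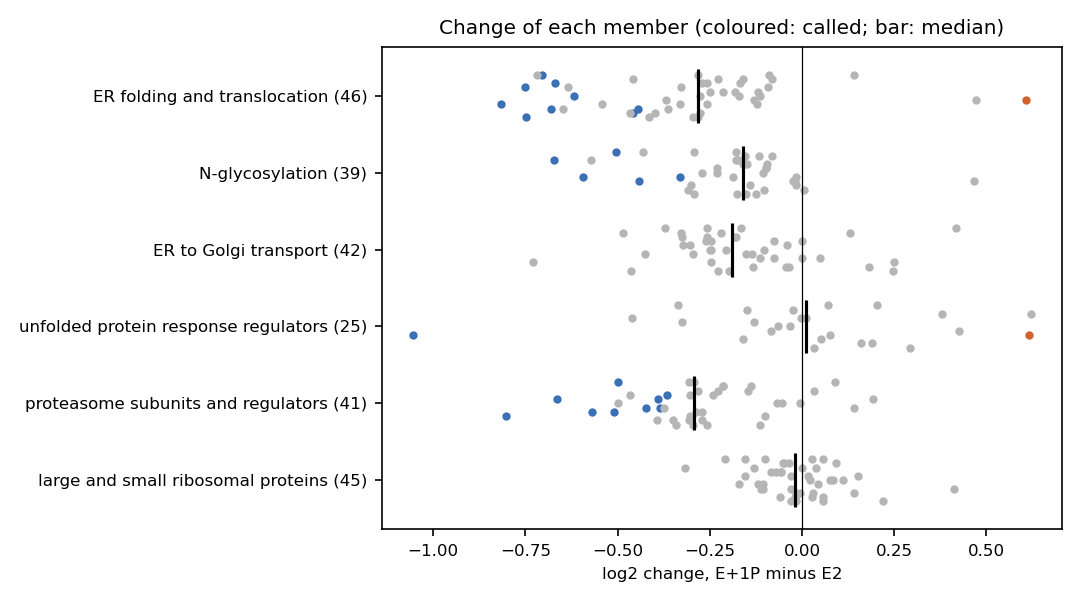
Log2 change, E+1P minus E2 (x axis), of each measured member of 6 gene groups, 1 point per gene, blue where it fell, orange where it rose and grey where not called; black bars are medians. The medians of ER folding (-0.28) and of the proteasome (-0.29) lie left of 0, and that of ribosomal proteins (-0.02) lies at 0; the last 2 groups were chosen after values were seen.

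Mucins and enzymes of mucin glycosylation had 2 risen and 1 fallen member of 41 (median 0.09). GALNT5, which starts O-linked chains, had signals of 8.99, 9.06, 6.73, 8.81 and 8.55 in E2 and 6.78, 6.45, 6.50, 6.18 and 6.58 in E+1P. E2 replicate 3 was lowest of its group and 1 E+1P array lay above it, and GALNT5 fell by 1.93 (adjusted p = 0.00403), or 2.36 without that array. The membrane mucin gene MUC15 lay at 5.83 to 7.79 in E2 and 8.42 to 10.50 in E+1P and rose by 2.69 (adjusted p = 0.0298), lost without any array other than E2 replicates 3 and 5 and E+1P replicates 2 and 5 (highest adjusted p = 0.0915). ST6GALNAC1, which caps mucin chains with sialic acid, lay at 6.0 to 8.40 in E2 and 9.58 to 10.0 in E+1P and rose by 2.24 (adjusted p = 0.0253), lost without any array other than E2 replicates 1, 4 and 5 and E+1P replicate 2 (highest adjusted p = 0.0678). MME, the membrane peptidase neprilysin, was the only riser among 27 peptidases of peptide hormones, at 5.37 to 7.26 in E2 and 8.02 to 9.10 in E+1P (adjusted p = 0.0004). ERAP1, which trims peptides in the ER, fell (-0.53, adjusted p = 0.041), lost without any array other than E2 replicates 1 and 3 and E+1P replicates 1 and 4 (highest adjusted p = 0.133) and in a fit of both groups alone (adjusted p = 0.121). Without E2 replicate 3, 3 peptidases fell, among them ANPEP, aminopeptidase N (-1.28, adjusted p = 0.00506), and CPN1, a carboxypeptidase subunit (-1.0, adjusted p = 0.00894).

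Some pathways tied to cervical function had no call after 1 day at an adjusted p under 0.05 in limma. Of 51 genes of ion and water transport 9 had an unadjusted p under 0.05 (17.6%, against 16.5% of all genes), and 2 lay above and 2 below without overlap, near the shares of all genes (4.29% and 3.54%). In that list 1 rose and 1 fell without E2 replicate 3. Of 21 prostaglandin genes 5 had an unadjusted p under 0.05; without E2 replicate 3, the prostaglandin transporter gene SLCO2A1 (-1.61, adjusted p = 0.00114) and the receptor gene PTGDR (-1.08, adjusted p = 0.0224) were lower. Over all arrays SLCO2A1 had a change of -1.20 (adjusted p = 0.0672), with E2 replicate 3 at 8.04, the other E2 arrays at 9.59 to 10.79 and the E+1P arrays at 8.14 to 8.79. Notch and hedgehog signalling had 4 of 23 at an unadjusted p under 0.05, and 1 called lower without E2 replicate 3. At the 3.55% of all genes, lists of 21 or 23 genes would hold under 1 call, so their lack of calls says little.

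The remaining lists had between 1 and 4 called members each. Markers of decidual stroma, the endometrial tissue that progesterone prepares for pregnancy, had 2 risen and 2 fallen of 17, with a median of 0.02: MME and FOXO3 higher, DIO2 and STC1 lower, all given above. Smooth muscle contraction and relaxation had 2 risen of 35 and a median of -0.28, which was -0.12 without E2 replicate 3. One of the 2 was PDE1A, a calcium-dependent phosphodiesterase (1.02, adjusted p = 0.0251, lost without E2 replicates 1 or 5 or E+1P replicates 1, 4 or 5 (highest adjusted p = 0.0807)). The other was the serotonin receptor gene HTR2A (0.85, adjusted p = 0.0282), lost without any array other than E2 replicates 1 and 4 and E+1P replicates 3 and 4 (highest adjusted p = 0.0975) and in a fit of both groups alone (adjusted p = 0.0733). Epithelial defence proteins had SCGB1D4 higher and the chitinase-like gene CHI3L1 lower of 28. CHI3L1 lay at 8.54 to 9.60 in E2 and 6.13 to 8.88 in E+1P and fell by 1.96 (adjusted p = 0.0158), lost without E2 replicate 2 or E+1P replicates 3 or 4 (highest adjusted p = 0.0538).

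Levels on the next day sampled, day 3, were set beside those of day 1. This comparison uses the same E+1P arrays, so a high E+1P value lowers the second difference while it raises the first. Of the 15534 genes 915 (5.89%) differed between E+3P and E+1P, 273 higher (1.76%) and 642 lower (4.13%) on day 3. Tissue makeup differed on 2 of the 5 E+3P arrays. Replicates 2 and 3 lay 6.88 and 3.88 scaled median absolute deviations below the median of all arrays in columnar epithelium markers. In ciliated epithelium markers they lay 5.04 and 4.78 below. Replicate 3 also lay 7.36 above in squamous epithelium markers. Without these and the 2 E+14P arrays that stand apart, 547 probe sets differed in place of 1790 (4.42%).

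Several genes that had risen by day 1 were lower again on day 3, also without these arrays and in a fit of both groups alone. KRT222 was at 7.04 to 8.54 on day 1 and 3.54 to 4.67 on day 3, a difference of -3.56 (adjusted p = 4.3e-07, and 3.49e-05 when the arrays standing apart were dropped). CTSC was at 6.69 to 7.58 on day 3, a difference of -2.39 (adjusted p = 1.83e-07), and SEC14L2 at 5.27 to 6.38, a difference of -2.44 (adjusted p = 2.09e-07). HGD differed by -2.14 (adjusted p = 1.46e-05), STRA6 by -1.84 (adjusted p = 2.85e-05), SERPINF2 by -1.61 (adjusted p = 1.02e-05) and BTG2 by -1.54 (adjusted p = 3.92e-05). SMARCA1, TMEM43 and SEC62 differed by -1.04, -0.89 and -0.79 (highest adjusted p = 0.000109). For KRT222, CTSC and SEC62 the day 3 means of 4.12 ± 0.42, 7.04 ± 0.36 and 8.68 ± 0.24 were no higher than the E2 means.

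Another set showed no such difference. FKBP5 was at 7.08 to 8.59 on day 3 (-0.32 from day 1, adjusted p = 0.401), TSC22D3 differed by -0.06 (adjusted p = 0.87) and AOX1 by 0.02 (adjusted p = 0.985). PGR (-0.46, adjusted p = 0.187), ESR1 (0.13, adjusted p = 0.748), SEMA3D (0.38, adjusted p = 0.67), CDH12 (-0.16, adjusted p = 0.749) and IL33 (0.08, adjusted p = 0.933) were likewise not called between the days, which does not show that their levels were equal. NRP1 was higher on day 3 by 1.11 (adjusted p = 0.014), but not when the arrays standing apart were dropped (adjusted p = 0.103) or in a fit of both groups alone (adjusted p = 0.125).

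**Figure D5:**
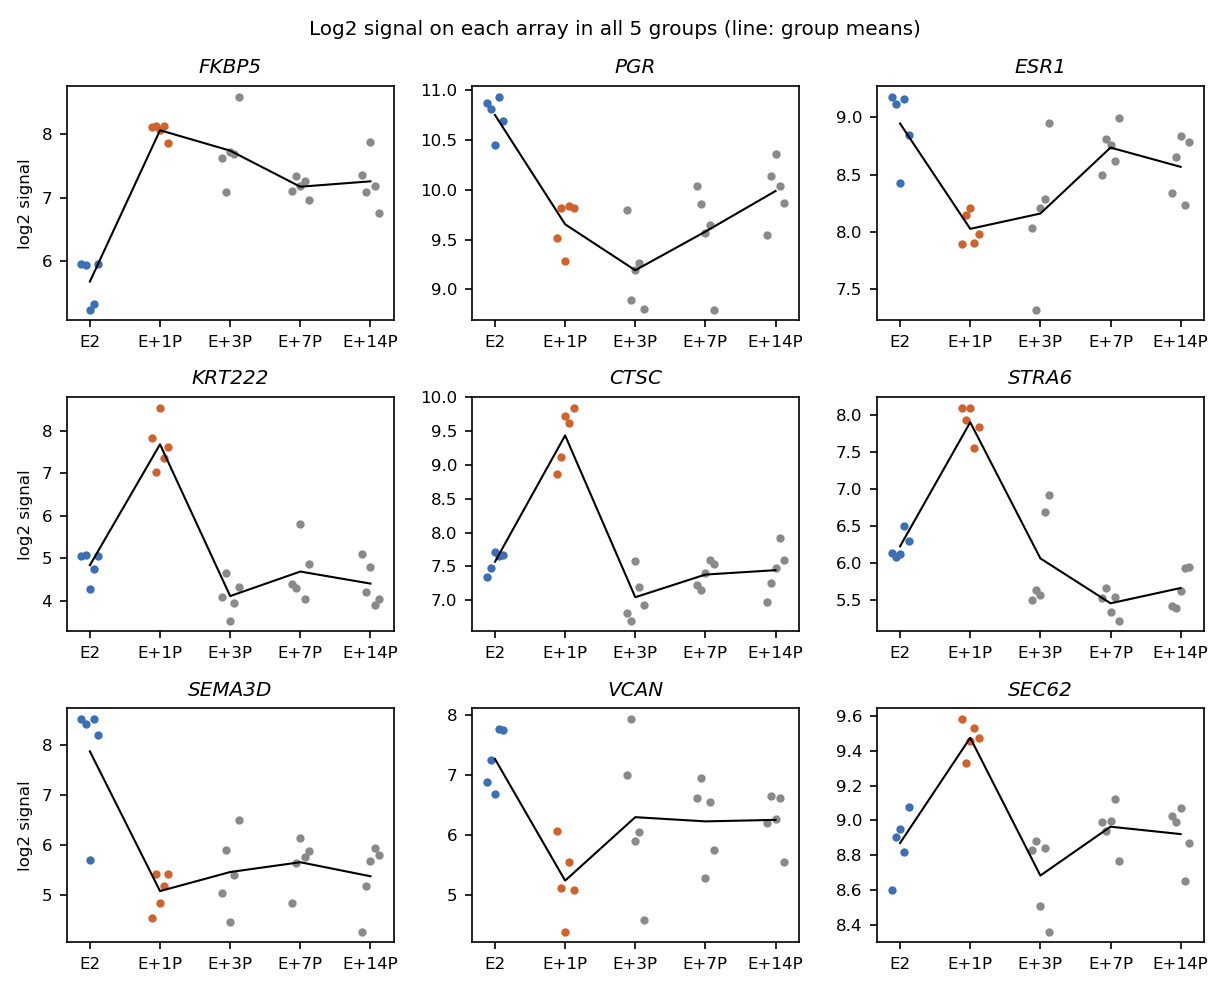
Log2 signal (y axis) on each array of the 5 groups (x axis) for 9 genes, 1 point per animal, with E2 blue, E+1P orange and later groups grey; the line joins group means. KRT222, CTSC, STRA6 and SEC62 peak in E+1P and lie lower in E+3P, while FKBP5, PGR and SEMA3D stay on the same side of E2 in each later group mean.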

How the data were processed

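The deposited table holds log2 signals per probe set, made by the authors with Affymetrix Expression Console per the submitters' processing notes; its version and the way arrays were normalized are not given here. Per the labels, tissue was frozen and RNA extracted, amplified and labelled with kits. The 40489 probe sets of 25 arrays had no missing value and array medians between 5.50 and 5.60. Each array is 1 sample, its number limits the precision, and signal over background is unknown. Where several probe sets shared a symbol, the one with the highest mean signal stood for the gene; 16020 probe sets had 1 symbol. Genome positions and sequences were not used here.

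limma 3.58.1 in R 4.3.3 fitted 1 coefficient per group to all 25 arrays (20 residual degrees of freedom, variance trend), with 2-sided tests. The code was tested on simulated data. Members and lists were chosen with earlier results of these data known. Named genes were the 20 highest and 20 lowest called changes with at least median signal, the 10 lowest p, up to 5 called members per list (the 2 lowest p where none was called), PGR, ESR1 and FKBP5, which gave 143 genes; another 46 were chosen after values were seen, of which ALDH6A1, BCL6, CRISPLD2, NFKBIA, PDCD4 and TFRC stand above, as were uncalled genes set beside called ones and genes called only without E2 replicate 3. Genes of unsure role and some with small changes are left out for length. Alternatives were 2 other normalizations, a filter on dim probe sets, no variance trend, array weights, smooth muscle or squamous covariates, only probe sets with 1 symbol, both groups alone, and each array left out; leaving out 4 arrays of later groups with different tissue makeup was chosen after seeing the data.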

Additional observations from a re-analysis of the deposited data

Results flagged for a closer look

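For 314 sets of 5 log2 signals, the E2 and the E+1P values of the 157 genes named here, the gap between the most extreme array and its nearest neighbour was set against the range of the group. The gap passed the 95% critical value of Dixon's test (0.71) in 41 sets, where chance gives about 1 in 20, and in 32 of them the array was E2 replicate 3. MUC5B, CLCA2, HOXC6 and the genes called only without that array were named because it stood apart in them. The log2 signal of the outlying array follows each gene in parentheses. E2 replicate 3 was the low array for ALDH4A1 (5.15), ANPEP (5.56), ASF1B (5.95), CA10 (5.30), CITED1 (4.48), CLCA2 (4.58), CYP26A1 (3.92), CYSLTR1 (5.67) and DIO3 (4.28). It was also low for DUSP6 (6.26), GALNT5 (6.73), IL33 (9.38), MUC5B (4.84), NRG1 (5.85), PDCD4 (9.63), PODXL (8.29), SEC24D (9.05) and SEMA3D (5.71). It was also low for STC1 (6.12), TGM2 (6.46), TMEM43 (6.81), TNFSF15 (4.14), UNC93A (3.86) and XBP1 (8.86). E2 replicate 3 was the high array for CALR (11.57), CD44 (9.39), CITED2 (8.48), HOXC6 (8.55), HSP90AA1 (10.96), HSPA5 (9.71), LIFR (9.77) and PDK4 (7.81). Other arrays stood apart for IL20RA on E+1P replicate 2 (7.89), DIO3 on E+1P replicate 3 (5.63), DUSP1 on E+1P replicate 4 (6.48), SEC24D on E+1P replicate 4 (8.71), SERPINF2 on E+1P replicate 4 (6.36) and CYSLTR2 on E+1P replicate 5 (3.25). The same held for FKBP5 on E+1P replicate 5 (7.87), HAS2 on E2 replicate 1 (5.42) and IDO2 on E2 replicate 2 (5.27).

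For 36 of the called genes named here, the limma test of E+3P minus E+1P was called at an adjusted p under 0.05. Without the 4 arrays that stand apart 21 of them were still called, in a fit of both groups alone 14, and in both 12. The difference shares the E+1P arrays with the contrast against E2, by which many of these genes were chosen. Their number can therefore not be read against the 5.89% of all genes that differed. The log2 size of the difference follows each gene in parentheses. Lower on day 3 in all 3 fits were KRT222 (-3.56, adjusted p = 4.3e-07), SEC14L2 (-2.44, adjusted p = 2.09e-07), CTSC (-2.39, adjusted p = 1.83e-07), HGD (-2.14, adjusted p = 1.46e-05), UNC93A (-2.0, adjusted p = 0.00087), STRA6 (-1.84, adjusted p = 2.85e-05), SERPINF2 (-1.61, adjusted p = 1.02e-05) and BTG2 (-1.54, adjusted p = 3.92e-05). So were SMARCA1 (-1.04, adjusted p = 1.19e-05), TMEM43 (-0.89, adjusted p = 9.66e-05), SEC62 (-0.79, adjusted p = 0.000109) and ALG14 (-0.72, adjusted p = 0.00214). Lower on day 3, but not in every fit, were ST6GALNAC1 (-2.93), MUC15 (-2.81), IL20RA (-2.05), SLC26A7 (-1.89), COL4A3 (-1.88), MME (-1.70), ALDH6A1 (-1.69) and RGCC (-1.65). The same was true of RAB3B (-1.63), TDO2 (-1.59), LIPG (-1.45), ID1 (-1.01), PDZD2 (-1.0), ATF6 (-0.83), GPC4 (-0.82) and DDIT4 (-0.77). The same was true of EEF2K (-0.65), COL4A4 (-0.61), CDKN2C (-0.61) and IL6ST (-0.53). Higher on day 3, but not in every fit, were CCT6A (0.33), HAS2 (1.0), NRP1 (1.11) and PSMB10 (0.70).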

How the results depend on the processing

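The count of 938 called probe sets between E+1P and E2 (562 higher, 376 lower) was 1986 with array weights and lay between 758 and 1322 under the other 9 alternatives that keep every E2 and E+1P array. Leaving out each array gave 633 to 965. Centring arrays on their median split the calls into 521 higher and 388 lower, and leaving out E2 replicate 3 into 493 and 472. The 1790 probe sets called between E+3P and E+1P became 547 when the 4 arrays standing apart were left out, 411 with a smooth muscle covariate and 369 in a fit of both groups alone, and lay between 842 and 3665 when each array was left out. That count moved by more than 1.5 times without E+1P replicates 1 (929), 3 (842), 4 (1061) or 5 (1192) and without E+3P replicates 1 (1180), 2 (879) or 5 (3665). Centring on the median split it into 400 higher and 1534 lower, against 570 and 1220. The causes were not tested. Of 151 named genes with a call, 90 kept it in all 10 fits that leave out an array and 121 in a fit of both groups alone. Across the 10 other alternatives, 114 kept it in each one that tested them. The filter on dim probe sets tested only 135 of the 151. The direction of no named result turned. No paired analysis was possible because the animal numbers in the labels are not shared between groups. Without background values, how far a dim signal lies above background is unknown.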

Other observations

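Gene groups outside the lists above were looked at after the called genes had been seen, so their counts describe these arrays only. Over all genes 3.55% were called, 2.09% higher and 1.47% lower, and in the brightest set of 5178 genes 6.32% were called. Subunits and regulators of the proteasome, the complex that degrades tagged proteins, had 9 fallen and no risen member of 41 (22%), with 37 negative changes and a median of -0.29. Without E2 replicate 3 the count was 8 and none. PSMB2, a subunit of the inner rings of the core, had signals of 8.04, 7.97, 7.98, 8.05 and 8.10 in E2 and 7.50, 7.59, 7.63, 7.55 and 7.39 in E+1P, without overlap, and fell by 0.50 (adjusted p = 0.00337). PSMD1, a scaffold of the regulatory cap, fell by 0.51 (adjusted p = 0.00361), PSMA5, a core subunit, by 0.38 (adjusted p = 0.0116), and PSMB10, a subunit of the immunoproteasome, by 0.80 (adjusted p = 0.00873). These 4 calls held whichever array was left out.

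Chaperonins, ring complexes that fold cytosolic and mitochondrial proteins, had 4 fallen of 9 (44.4%), and 3 without E2 replicate 3. All 9 changes were negative (median -0.31). CCT6A fell by 0.39 (adjusted p = 0.00426) and CCT3 by 0.40 (adjusted p = 0.0134), both without overlap. The other 2 calls were less firm. That of HSPD1 was lost without any 1 of the 10 arrays (highest adjusted p = 0.119). That of HSPE1 was lost in 6 of the 10 fits that leave out an array (highest adjusted p = 0.0796). In a fit of both groups alone HSPE1 was not called (adjusted p = 0.0508). Ribosome assembly factors had 7 fallen of 61 (median -0.19), among them RPF2 (-0.79, adjusted p = 0.0117), a factor of the large subunit. The 45 ribosomal proteins themselves had none called by limma, 2 with an unadjusted p under 0.05 and a median of -0.02. Of the 9 cytosolic aminoacyl-tRNA synthetases 2 fell (1 without E2 replicate 3), EPRS1 by 0.52 (adjusted p = 0.00232) and IARS1 by 0.31 (adjusted p = 0.0279), the latter lost without any array other than E2 replicates 1 and 2 and E+1P replicate 4 (highest adjusted p = 0.0911) and in a fit of both groups alone (adjusted p = 0.0507).

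Of 9 genes of leukotriene receptors and synthesis, with a related metabolite receptor, 3 fell and none rose (33.3% called, against 3.55% of all genes). The median change was -0.11, and without E2 replicate 3 the count was 2. CYSLTR1, the main receptor of cysteinyl leukotrienes in airway muscle and immune cells, had signals of 7.04, 7.52, 5.67, 7.30 and 7.34 in E2 and 5.58, 5.48, 5.30, 5.38 and 5.43 in E+1P, without overlap, and fell by 1.54 (adjusted p = 0.00112). CYSLTR2 fell by 0.94 (adjusted p = 0.0311), lost without any array other than E2 replicates 4 and 5 and E+1P replicate 3 (highest adjusted p = 0.0958). OXGR1, a receptor for oxoglutarate that also binds leukotriene E4, fell by 1.68 (adjusted p = 0.00745; adjusted p = 0.0959 in a fit of both groups alone).

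Of 388 probe sets listed for a microRNA locus 5 were called (1.29%, against 2.32% of all probe sets), and 8 without E2 replicate 3. MIR424 lay at 6.53 to 7.88 in E2 and 5.48 to 6.10 in E+1P and fell (change -1.47, adjusted p = 0.00079) and MIR542 fell by 2.26 (adjusted p = 0.00295; adjusted p = 0.0527 in a fit of both groups alone). Both loci belong to 1 microRNA cluster on the human X chromosome. The annotation does not say which transcript these probe sets detect.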
